A study of Drosophila melanogaster with 12 samples.

Results

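The genes described here are betaTub60D and Strn-Mlck, a pair of mesoderm and muscle cytoskeleton genes, 2 of the 131 genes that could be named among the probe sets of the array. Each was found as the probe set whose identifier is a synonym of the gene in the RefSeq gene table. The pair was chosen from the named genes with their higher signal at stages 13 to 15 in control embryos already known, and the value of betaTub60D in irradiated embryos was known as well, so their differences between stages are given below as descriptions, with no test. The rule also takes the probe set with the highest mean over all 12 arrays, but each gene had only 1 probe set (143391_I_AT for betaTub60D, gene 37888, and 143736_AT for Strn-Mlck, gene 36753), so no choice by level was made. Of the 131 named genes, 107 were bright enough to be tested, both of these among them.

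betaTub60D encodes a beta-tubulin isotype that in the Drosophila embryo is made mainly in the mesoderm and the muscles that form from it, and tubulins are the subunits of microtubules. Strn-Mlck (Stretchin-Mlck) encodes, from different transcripts, large titin-like muscle proteins and a myosin light chain kinase, an enzyme that phosphorylates the regulatory light chain of myosin. At stages 9 to 11 the germ band of the embryo is extended and the mesoderm is being divided into its derivatives. At stages 13 to 15, after the germ band has retracted, myoblasts fuse and body wall and gut muscles take shape.

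The study hybridised total RNA of whole Drosophila melanogaster embryos to 12 arrays, 3 in each of 4 groups, and every group was of the C-S strain. At stages 9 to 11 there was a control group and a group given X-rays, and so there was at stages 13 to 15. The titles call the earlier window sensitive and the later one resistant, and treated embryos were taken 15 to 20 minutes after X-rays. Neither the dose nor the number of embryos per sample is given in the sources used here. No label says that the arrays of a group came from separate collections, so p-values measure only how much these samples differ, which may be technical.

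Across tested probe sets, Spearman correlations were 0.816 to 0.945 between arrays of 1 window and 0.617 to 0.752 between windows. The segment polarity gene en, active in the extended germ band, read 266.3 to 352.8 in control embryos of the earlier window and 54.5 to 80.8 in those of the later one. The number in each title, 1 to 3, marks 1 array of every group, and the labels do not say what those arrays share. The spike-in control BioB was brightest under number 1 (1376 to 1533), dimmer under number 2 (425 to 738) and dimmest under number 3 (226 to 299). The ratio of 5′ to 3′ probes for eIF-4a, which drops as RNA degrades, was at most 0.0550 under number 1, at most 0.0798 under number 2 and at least 0.140 under number 3. Differences within each number are therefore given beside the results.

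betaTub60D was lower on all 6 arrays of the earlier window than on any of the 6 arrays of the later one, whether or not the embryos had been irradiated. In control embryos at stages 9 to 11 its intensity was 97.9, 87.3 and 87.7 on arrays 1, 2 and 3. In control embryos at stages 13 to 15 it was 582.9, 534.4 and 780.6. The lowest later value stood 5.46 times above the highest earlier one, so the control groups did not overlap, as was also the case for 19.8% of all tested probe sets in this direction. The group means were 91.0 ± 6.01 and 633 ± 130 (SD, n = 3 each). Differences are given on the scale of log2(intensity + 13.4), where the added pseudocount damps the noise of weak signals and so understates the change of weak probe sets. On that scale the control embryos differed by 2.61, a 6.12-fold higher signal at stages 13 to 15, with 2.42, 2.44 and 2.97 within numbers 1, 2 and 3.

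The irradiated embryos gave the same comparison on 6 other arrays. betaTub60D read 97.0, 97.2 and 115.2 on arrays 1, 2 and 3 at stages 9 to 11, and 761.6, 809.1 and 762.8 at stages 13 to 15. The highest earlier array, 115.2, lay far below the lowest later one, 761.6, and the later arrays were close to each other, with an SD of 27.1 around a mean of 778 (n = 3). The log2 difference was 2.77 ± 0.17 (SE), a 6.81-fold higher signal at stages 13 to 15. Within numbers 1, 2 and 3 the difference was 2.81, 2.89 and 2.59.

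Strn-Mlck gave a weak signal in the later window and almost none in the earlier one. Control embryos at stages 9 to 11 read 3.8, 5.0 and 6.7 on arrays 1, 2 and 3, and control embryos at stages 13 to 15 read 22.2, 59.1 and 76.4. The lowest later array, number 1, was 3.31 times the highest earlier one, so these groups did not overlap either, but the later arrays were spread widely among themselves. The means were 5.17 ± 1.46 and 52.6 ± 27.7 (SD, n = 3 each). The log2 difference was 1.73, 3.32-fold, with 1.05, 1.98 and 2.16 within the numbers.

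In irradiated embryos Strn-Mlck read 6.0, 5.8 and 3.9 at stages 9 to 11 and 70.5, 20.0 and 68.2 at stages 13 to 15. Here array 2 was the low one of the later window, whereas in the controls it was array 1. The means were 5.23 ± 1.16 and 52.9 ± 28.5 (SD, n = 3 each), and the log2 difference was 1.72 ± 0.45 (SE), 3.29-fold. Within numbers 1, 2 and 3 it was 2.11, 0.80 and 2.24.

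In irradiated embryos 12% of all tested probe sets rose by the test used below, and for 18.2% the groups did not overlap in this direction. Nothing is read from these shares about betaTub60D or Strn-Mlck, which were chosen for being higher in the later window.

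**Figure D1:**
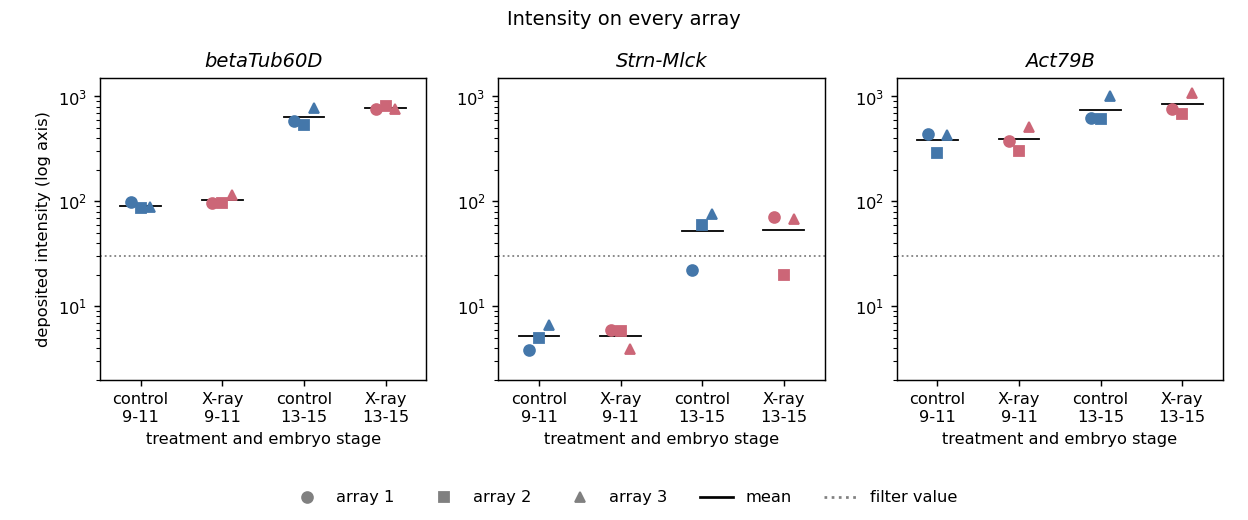
Deposited intensity (log axis) of betaTub60D, Strn-Mlck and the muscle actin gene Act79B on each of the 12 arrays, by treatment and embryo stage, with circles, squares and triangles for arrays 1, 2 and 3, bars for group means of 3 arrays and a dotted line at the filter value of 30.0. Within each treatment all arrays of the later window lie above all arrays of the earlier one for each gene. The same held for 19.8% of all tested probe sets in control and 18.2% in irradiated embryos. Strn-Mlck lies under the dotted line on all 6 earlier arrays and on 2 later ones. The signal of the Act79B probe set may include other actin transcripts.

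The strength of the signal sets how firmly each stage difference can be read. betaTub60D was above the filter value of 30.0 on 12 of 12 arrays. Strn-Mlck was above it on 0 of 6 earlier and 4 of 6 later arrays, so it passed the filter only through the window where it was high and had to differ between the windows. The 4 mouse control probe sets, which have no target in the fly, read 1.10 to 41.5 over the 12 arrays with a median of 6.25. The earlier Strn-Mlck values of 3.8 to 6.7 and its lowest later values of 20.0 and 22.2 lie inside that range, while its other 4 later values, 59.1 to 76.4, lie above it. The ratio of mean intensities was 10.2 in control and 10.1 in irradiated embryos, against 3.32 and 3.29-fold on the log2(intensity + 13.4) scale, so the size of the stage difference of Strn-Mlck depends on the pseudocount. For betaTub60D the same ratios of means were 6.95 and 7.54, against 6.12 and 6.81-fold.

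The genes differed in how steady they were within a window. Over the 6 later arrays, control and irradiated together, betaTub60D ran from 534.4 to 809.1, a 1.51-fold span, and Strn-Mlck from 20.0 to 76.4, a 3.82-fold span. The low Strn-Mlck arrays were resistant control 1 and resistant X-ray 2. On resistant control 1 betaTub60D read 582.9, above only 534.4 among its later values. On resistant X-ray 2 it read 809.1, its highest value of all. The low Strn-Mlck arrays carried different replicate numbers, and number 3, where the array controls stood apart, held the highest later control value of both genes. Over the 6 earlier arrays betaTub60D spanned 1.32-fold, from 87.3 to 115.2. In RNA of whole embryos, more cells of a type and more RNA per cell cannot be told apart.

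The next comparison asks whether either transcript changed 15 to 20 minutes after X-rays in the earlier window, where the titles call the embryos sensitive. Neither did by the test, limma with Benjamini-Hochberg adjustment over all 10128 tested probe sets. betaTub60D averaged 91.0 ± 6.01 without X-rays and 103 ± 10.5 with them (SD, n = 3 each), and the irradiated values of 97.0 and 97.2 lay between the control values of 87.7 and 97.9. The log2 difference was 0.16 ± 0.17 (SE), a ratio of 1.11 with a 95% confidence interval of 0.863 to 1.44 (unadjusted p = 0.381, adjusted p = 1.00 in limma). Within numbers 1, 2 and 3 it was −0.01, 0.14 and 0.35. Strn-Mlck differed by 0.01 ± 0.45 (SE), a ratio of 1.00 with an interval of 0.518 to 1.95 (adjusted p = 1.00 in limma), and within numbers by 0.17, 0.06 and −0.22. All 6 of its values there lay below the filter value and within the range of the mouse control probe sets described above. The interval rests on 1 estimate of spread shared by all 4 groups, and the later arrays of Strn-Mlck varied more than these. In plain log2, without the pseudocount, its differences within numbers 1, 2 and 3 were 0.66, 0.21 and −0.78. Of all tested probe sets 2 (0.0197%) passed in this comparison.

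After X-rays in the later window the 3 irradiated arrays of betaTub60D, 761.6 to 809.1, were nearly equal, and the control array numbered 3, 780.6, lay among them. The other control arrays, 582.9 and 534.4, lay below all of them. The mean was 633 ± 130 without X-rays and 778 ± 27.1 with them (SD, n = 3 each), and the log2 difference of 0.31 ± 0.17 (SE) did not pass (unadjusted p = 0.0937, adjusted p = 1.00 in limma). The ratio was 1.24 with a 95% confidence interval of 0.960 to 1.60. Within numbers 1 and 2 the difference was 0.38 and 0.59, and within number 3 it was −0.03. Without the 4 arrays numbered 3 it was 0.48 (adjusted p = 0.447 in limma).

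Strn-Mlck had almost the same mean with and without X-rays in the later window, 52.9 ± 28.5 and 52.6 ± 27.7 (SD, n = 3 each). Each group held 1 low and 2 higher arrays, and their ranges, 20.0 to 70.5 and 22.2 to 76.4, overlapped almost wholly. The log2 difference was −0.01 ± 0.45 (SE), and the interval of the ratio ran from 0.513 to 1.93 (adjusted p = 1.00 in limma). Within numbers 1, 2 and 3 the difference was 1.24, −1.12 and −0.14, with opposite signs where the low arrays fell. Neither gene passed, and neither did any of the 10128 tested probe sets (0%), of which 501 had an unadjusted p under 0.05.

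The X-ray effects of the windows were also set against each other directly, as the earlier effect minus the later one. For betaTub60D this was −0.15 ± 0.25 (SE, adjusted p = 0.996 in limma), with −0.39, −0.45 and 0.38 within numbers 1, 2 and 3. For Strn-Mlck it was 0.01 ± 0.63 (SE, adjusted p = 0.999 in limma), with −1.06, 1.18 and −0.08. The 95% confidence intervals, −0.68 to 0.37 and −1.34 to 1.36 on the log2 scale, leave room for differences of either sign. Of all tested probe sets 2 (0.0197%) passed. The same contrast equals the stage difference in control embryos minus that in irradiated embryos. It thus sets the stage differences of 2.61 and 2.77 of betaTub60D, and of 1.73 and 1.72 of Strn-Mlck, against each other. The control values were known when the pair was chosen, and they enter this contrast and both X-ray effects. The p-values of the pair for all 3 are therefore not independent of that choice.

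**Figure D2:**
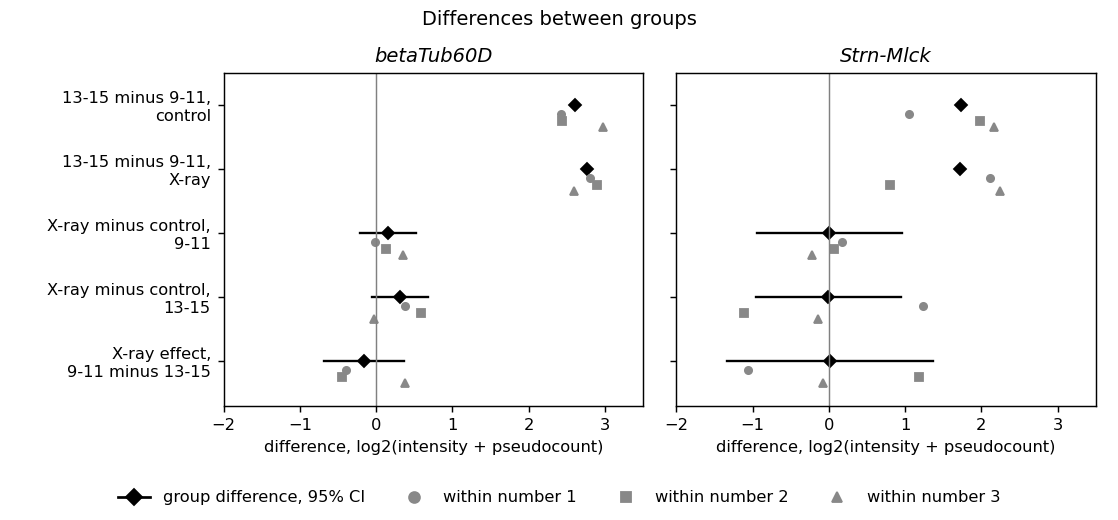
Differences between groups for betaTub60D and Strn-Mlck on the log2(intensity + pseudocount) scale, with diamonds for the difference of group means, lines for its 95% confidence interval (none for the stage differences, which are descriptions) and grey circles, squares and triangles for the differences within numbers 1, 2 and 3. The stage differences lie to the right of 0 within every number, while the intervals of the X-ray effects and of their difference hold 0 for both genes.

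Of a list of 57 genes of muscle and mesoderm, 3 were named among the probe sets and all 3 were tested, the pair above and Act79B, which encodes a muscle actin. The tubulin list of 10 genes was represented by betaTub60D alone, and the actin and myosin list of 38 genes by Strn-Mlck and Act79B. The lists of neuron, glia, epidermis, gut with fat body, and hemocyte markers held no named gene, so the other tissues of the embryo were not analysed here by name. The F in the identifier of Act79B (143060_F_AT) marks, in the naming of Affymetrix arrays, a probe set shared by a gene family, so its signal may include other actin transcripts. The I in that of betaTub60D marks one with fewer unique probes than the design asks for.

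The Act79B probe set, which may also read other actin transcripts, was bright in every group and higher in the later window. Control embryos read 438.3, 287.6 and 431.5 on arrays 1, 2 and 3 at stages 9 to 11 and 617.1, 608.6 and 1009 at stages 13 to 15. The groups did not overlap, as was the case for 19.8% of all tested probe sets in this direction. The arrays numbered 3 gave the highest later value in both treatments. The log2 difference was 0.91 ± 0.25 (SE), a 1.88-fold rise (adjusted p = 0.0137 in limma, where 12.4% of all tested probe sets rose), and it was 0.48, 1.05 and 1.20 within the numbers. The call was lost with every array scaled to a common median (0.71, adjusted p = 0.0870), without sensitive control replicate 2 (0.72, adjusted p = 0.0745) and without resistant control replicate 3 (0.67, adjusted p = 0.0652). The list that holds Act79B was chosen with earlier results known. Its p-values for the stage difference in control and irradiated embryos are thus no independent support.

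In irradiated embryos Act79B read 374.8, 302.7 and 510.6 at stages 9 to 11 and 764.0, 676.0 and 1080 at stages 13 to 15. It rose by 1.06 ± 0.25 on the log2 scale (SE), 2.09-fold (adjusted p = 0.00571 in limma), with 1.00, 1.13 and 1.06 within numbers 1, 2 and 3. After X-rays it differed by 0.03 ± 0.25 in the earlier window and by 0.18 ± 0.25 in the later one (SE, adjusted p = 1.00 each in limma). After X-rays 0 of the 3 named genes of the muscle and mesoderm list passed in either window, where 0.0197% of all tested probe sets passed in the earlier window and 0% in the later one.

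**Figure D3:**
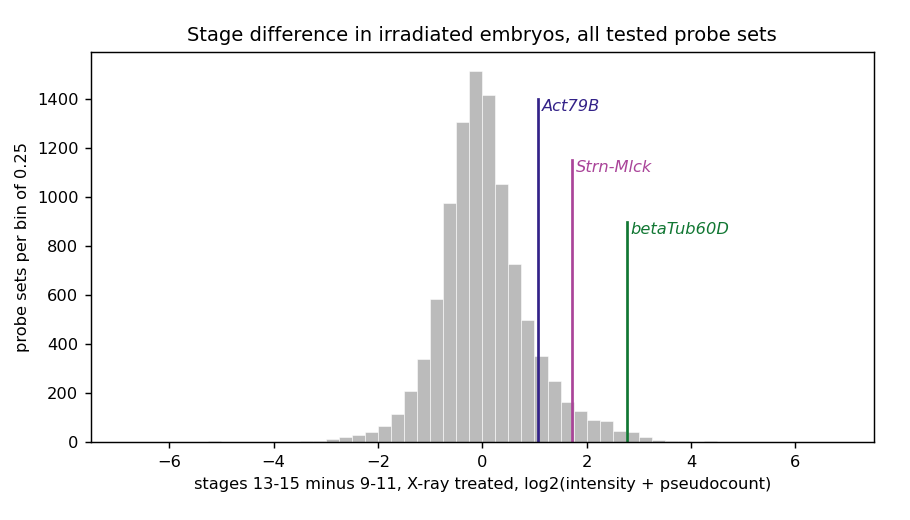
Histogram of the difference between stages 13 to 15 and 9 to 11 in irradiated embryos over 10128 tested probe sets, on the log2(intensity + pseudocount) scale (horizontal axis) against probe sets per bin of 0.25 (vertical axis), with coloured lines at betaTub60D, Strn-Mlck and Act79B whose heights carry no value. The lines stand at 2.77, 1.72 and 1.06, to the right of the bulk of probe sets. betaTub60D and Strn-Mlck were chosen for being higher in the later window, so nothing is read from the place of their lines.

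The named genes whose profile over the 12 arrays was most like that of each gene were found by the root mean square difference between log2 profiles, each centred on its own mean. A smaller value means closer, in both shape and size of change, and since the windows differ widely it mainly reflects the stage difference. Nearest to betaTub60D among 106 other named and tested genes were Shmt (serine hydroxymethyltransferase of one-carbon metabolism), at 0.34, and Oat (ornithine aminotransferase), at 0.40. Next came Strn-Mlck, at 0.66, before Jheh1 (a juvenile hormone epoxide hydrolase) and CG6415, at 0.67 each. The median distance of named genes from betaTub60D was 1.5. Of all tested probe sets 23 were closer than Shmt and 345 closer than Strn-Mlck. The pair was chosen for being higher in the later window, so the place of Strn-Mlck is not independent of that choice. In the later window Shmt had a lower mean in irradiated embryos (log2 difference −0.38) and betaTub60D a higher one (0.31). Neither passed, and the genes were not tested against each other.

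Nearest to Strn-Mlck were CG9547 at 0.40, PTPMT1 (whose mammalian counterpart is a mitochondrial phosphatase) at 0.45, Taldo (transaldolase of the pentose phosphate pathway) at 0.51, the chaperone gene Hsp83 at 0.53 and Act79B at 0.54. betaTub60D stood at place 11 of 106 from Strn-Mlck, behind 10 other named genes. The median distance of named genes was 1.09. Of all tested probe sets 26 were closer than CG9547 and 324 closer than Act79B. CG9547 shared 1 of the low arrays, reading 26.5 on resistant X-ray 2 against 76.4 to 128.5 on the other later arrays, but it read 98.9 on resistant control 1, where Strn-Mlck was low. Which genes are nearest changed with the settings: with 0.25 times the pseudocount, 2 of the 5 nearest to Strn-Mlck and 3 of the 5 nearest to betaTub60D were shared with the lists given here. In that setting betaTub60D was the nearest to Strn-Mlck after CG9547. In none of the other settings tried was it among the 5 nearest. Strn-Mlck was no longer among the 5 nearest to betaTub60D with 4 times the pseudocount, under quantile normalization or without the 4 arrays numbered 3.

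**Figure D4:**
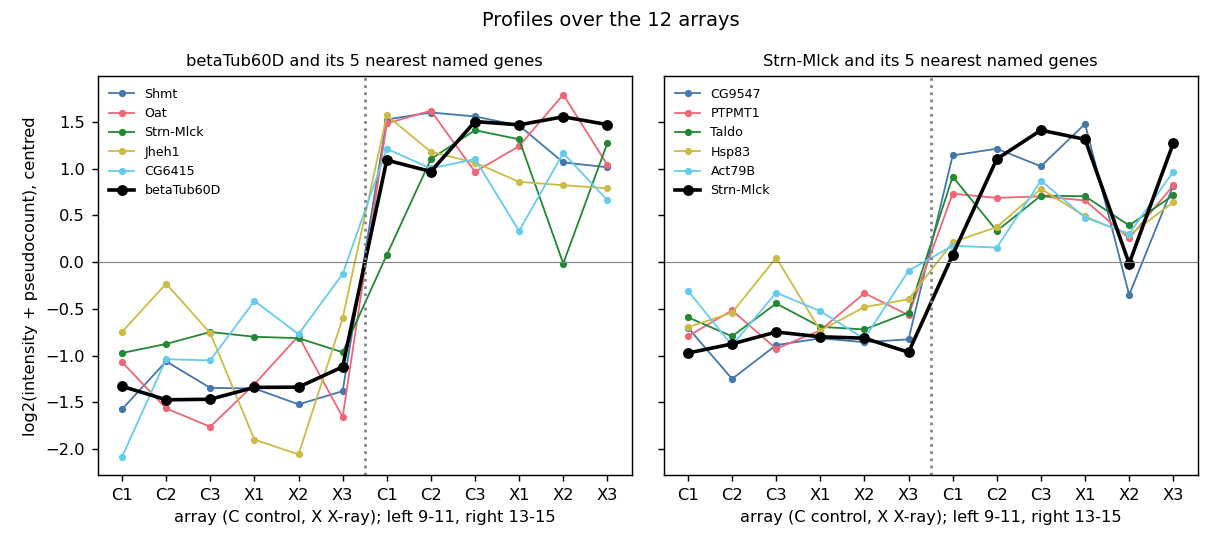
Profiles over the 12 arrays of betaTub60D (left) and Strn-Mlck (right) in black, each with its 5 nearest named genes in colour, as log2(intensity + pseudocount) centred on each gene's mean (vertical axis), by array (horizontal axis; C control and X X-ray arrays 1 to 3, stages 9 to 11 left and stages 13 to 15 right of the dotted line). betaTub60D changes level mainly between the windows. In the later window it lies lower on control arrays 1 and 2 (1.09 and 0.97) than on the other arrays (1.47 to 1.56). Strn-Mlck dips on control array 1 and X-ray array 2 of the later window.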

How the data were processed

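The deposited table holds 14010 probe sets, 44 of them array controls, measured on 12 arrays of 1 colour. Its values are intensities on a linear scale, as the authors deposited them. Scanner software, background correction and normalization: not given in the sources used here. Array means, after trimming 2% at each end, agreed to within 0.00230%, so the deposited scaling was kept. A change in total signal would be lost in it.

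Gene names were taken from RefSeq synonyms (Drosophila melanogaster Release 6), matched without regard to case, which named 133 probe sets (131 genes, 0 with several). Genome positions were not used. The analysis scale was log2(value + 13.4), the 25th percentile of the 13966 gene probe sets. Probe sets above 30.0 (the 40th percentile) on at least 3 arrays were tested, 10128 in all. Differences were tested, 2-sided, with limma 3.58.1 in R 4.3.3: lmFit with 4 group means, and eBayes with a trend on mean level, 8 residual and 7.25 prior degrees of freedom. Benjamini-Hochberg adjustment ran over all tested probe sets at 0.05. Precision is limited by having 3 arrays per group: 95% confidence intervals reached 0.724 to either side at the median, on the log2 scale. The smallest p that an exact permutation test allows here is 0.1, so none was used. The code was tested on simulated data.

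The members, the 9 gene lists and the settings were chosen with earlier results of these data known. The test of the stage difference in irradiated embryos was run as planned, but its p-values for the pair are not given, since that difference is not independent of how they were chosen. Those of the X-ray effects and of their difference are given with the limit stated above. The genes named are the pair, the 5 named genes nearest to each and the list genes found. At most 0.523% of values were identical between any pair of arrays, so no array was a copy of another and all 12 were used. This check cannot show that they came from separate collections of embryos. Same-numbered arrays deviated together by a correlation over 0.1 in 3 of 3 pairs within each window (0.130 to 0.422 and 0.101 to 0.435). Only number 3 stood clearly apart, with the 0.422 and 0.435. Arrays of unlike number reached 0.140 (resistant control 1 with resistant X-ray 2), above the 0.101 of the arrays numbered 1 there. The check thus does not clearly set numbers 1 and 2 apart, and the labels give no pairs. Between windows not every same-numbered pair was over 0.1. The fit without a replicate block was kept, with the block as an alternative. Standard errors, intervals and p-values of the main fit therefore treat the arrays as unpaired.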

Additional observations from a re-analysis of the deposited data

How the results depend on the processing

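The X-ray effects of betaTub60D and their difference kept their direction in every setting tried and stayed short of the 0.05 threshold in all but plain log2, where no test was run. Its stage difference in irradiated embryos was 2.41 to 2.92, and its control stage difference was 2.23 with 4 times the pseudocount. The size of the stage difference of Strn-Mlck depends on the pseudocount: in controls it was 2.58 with 0.25 times and 0.82 with 4 times the pseudocount and 3.21 in plain log2, and in irradiated embryos 2.55, 0.82 and 3.16 in the same order. In irradiated embryos it was also 1.49 to 2.15 with 1 array left out and 1.46 without the 4 arrays numbered 3. With 4 times the pseudocount it lay below that of Act79B (irradiated 0.99, control 0.85). The X-ray effects of Strn-Mlck, near 0, changed sign. At stages 9 to 11 the effect was −0.0727 under quantile normalization, −0.0206 with a common median and −0.0475 to 0.0650 with 1 array left out. At stages 13 to 15 it was 0.000837 with 4 times the pseudocount, 0.0277 under quantile normalization, 0.0171 with a common median, 0.0419 with array weights, 0.0593 without number 3 and −0.40 to 0.43 with 1 array left out. Their difference was −0.100, −0.0377 and −0.000851 under quantile normalization, common median and array weights, and −0.42 to 0.41 with 1 array left out. For Act79B the effect at stages 9 to 11 was −0.0469 with a common median, −0.00912 with array weights, −0.0740 without number 3 and −0.16 to 0.20 with 1 array left out, that at stages 13 to 15 was −0.0105 to 0.42 and their difference −0.39 to 0.0399 with 1 array left out. The cause was not tested. For X-rays at stages 9 to 11, 9 probe sets passed without the arrays numbered 3, 1 with only the groups compared, 0 without a trend and 0 to 3 with 1 array left out, against 2. At stages 13 to 15, 1 passed without number 3 and 0 to 1 with 1 array left out, against 0. For the difference, 12 passed without number 3, 0 without a trend, 1 with 4 times the pseudocount, quantile normalization, no filter or a stricter filter, and 0 to 3 with 1 array left out, against 2. A common median moved the median stage difference of all probe sets in controls by −0.17 and the share of calls that were higher from 46.0% to 33.8%. The replicate block (betaTub60D X-ray effect at stages 13 to 15 of 0.31, adjusted p = 0.716 in limma) changed no call of the pair or of Act79B and moved the counts for X-rays and their difference from 2, 0 and 2 to 3, 0 and 2. Between windows, same-numbered arrays correlated by as little as 0.0147, and 10 of all 12 arrays correlated best with their own number.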
